A study of Mus musculus with 8 samples.

Results

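The creatine and adenylate kinase genes were followed as a set of 9 members chosen by name: Ckm, Ckb, Ckmt2 and Ckmt1, which encode creatine kinases, Slc6a8, Gatm and Gamt, which serve creatine uptake and synthesis, and Ak1 and Ak4, which encode adenylate kinases. All 9 were found among 50599 gene records in RNA from whole mouse hearts. The knockout group held 4 C57BL/6N mice lacking Lrpprc, a mitochondrial RNA-binding protein, and the wildtype group held 4 C57BL/6N mice. The mice were 12-week-old males. The study's methods describe a conditional knockout in heart and skeletal muscle, with loxP-flanked Lrpprc alleles and Cre, and controls with the loxP-flanked alleles and no Cre, so that both groups carried the altered allele. The promoter that drove Cre, and so the heart cells that expressed it, is not given in the sources used here, and whether transgene sequence was counted with any member was not tested.

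Creatine kinases pass a phosphate group between ATP and creatine. Mitochondrial forms make phosphocreatine beside the site of ATP synthesis, and cytosolic forms rebuild ATP beside the myofibrils, so that the pair acts as a shuttle and a buffer in muscle. Adenylate kinases even out ATP, ADP and AMP. Cardiomyocytes take up most of their creatine from blood, since the synthetic enzymes are most active in kidney and liver.

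The starts of the 4 creatine kinase genes are shown because the 4 isoenzymes differed widely in level and Ckmt1 was the only creatine kinase gene called higher. Each run is the 250 bases before the RefSeq transcript start in build GRCm38.p6, read 5′ to 3′ on the strand of the gene. Capitals mark CANNTG (the E-box core), TATAAA and CCAAT, searched on both strands, so that TTTATA and ATTGG mark the reverse strand.
Ckm (chr7:19410844-19411093, forward strand): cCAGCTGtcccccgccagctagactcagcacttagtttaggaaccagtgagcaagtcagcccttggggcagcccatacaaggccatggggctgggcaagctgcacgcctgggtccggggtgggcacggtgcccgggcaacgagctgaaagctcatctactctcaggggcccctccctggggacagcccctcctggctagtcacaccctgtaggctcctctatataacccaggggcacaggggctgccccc
Ckb (chr12:111672339-111672588, reverse strand): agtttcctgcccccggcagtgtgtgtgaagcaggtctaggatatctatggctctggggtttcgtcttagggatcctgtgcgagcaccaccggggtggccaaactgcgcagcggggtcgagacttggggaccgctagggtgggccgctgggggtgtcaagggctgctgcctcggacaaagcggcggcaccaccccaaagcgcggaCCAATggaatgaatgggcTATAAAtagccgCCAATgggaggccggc
Ckmt2 (chr13:91876886-91877135, reverse strand): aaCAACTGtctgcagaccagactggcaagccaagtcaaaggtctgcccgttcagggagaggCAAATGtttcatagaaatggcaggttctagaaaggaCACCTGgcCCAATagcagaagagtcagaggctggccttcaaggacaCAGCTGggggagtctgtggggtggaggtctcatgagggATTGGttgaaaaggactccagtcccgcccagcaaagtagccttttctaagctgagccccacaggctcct
Ckmt1, the first of its 2 listed starts (chr2:121357526-121357775, forward strand): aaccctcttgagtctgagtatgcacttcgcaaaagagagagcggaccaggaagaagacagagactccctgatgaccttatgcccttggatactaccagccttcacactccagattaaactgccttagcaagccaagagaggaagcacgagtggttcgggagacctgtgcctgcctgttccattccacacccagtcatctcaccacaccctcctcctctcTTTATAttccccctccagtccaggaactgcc
The Ckm window held 1 CANNTG and the Ckmt2 window held 4, while 66.2% of 32851 promoter windows of this length held at least 1. Ckb held TATAAA at 28 to 23 bases before its start and 2 copies of CCAAT, and the first Ckmt1 window held TATAAA on the reverse strand. Of all windows, 12.4% held TATAAA and 33.8% held CCAAT. These are matches of letters only, in a RefSeq window. The annotated gene starts of Ckm and Ckmt1 lie upstream of the RefSeq starts used here. The marked Ckmt1 TATAAA therefore lies inside the annotated gene. RefSeq windows were found for 8 of the 9 members, with none for Slc6a8.

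Depth was 35218541 to 47743376 expected counts per library. Mitochondrial rRNA took 44.0 to 46.9% of counts in wildtype and 65.6 to 67.8% in knockout libraries, and the size factors used below come from the median ratio over genes. Lrpprc fell from 3665 ± 216 to 577 ± 48.6 normalised counts (SD, n = 4 mice in each group). Cardiomyocyte markers such as Myh6 and Tnnt2 were abundant in all libraries, and 6 of 8 listed markers were called lower in knockout (15.5% of all tested genes were). Myh7, the slow myosin heavy chain of the same list, rose by 4.10 on the log2 scale. Their summed level was 994321 to 1109090 in wildtype and 524843 to 669954 in knockout, and whether fewer cells of a type or less RNA per cell lay behind a lower level cannot be told apart in bulk RNA. Knockout replicate 3 stood apart from the other knockouts on the second principal component (38.7, against -20.3 to -11.9), which held 12.4% of the variance.

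By DESeq2, with p-values adjusted over all genes tested and a threshold of 0.05, 5 of the 9 members were called, beside 33.7% of the 19959 genes tested. Ckmt1, Slc6a8 and Ak4 rose and Ckm and Ak1 fell, where 18.2% of all tested genes were called higher and 15.5% lower. All 9 members were tested. Ckmt2, Ckb, Gatm and Gamt were not called. The median log2 fold change was -0.26 over the 9 members and 0.0050 over all tested genes. The 2 groups did not overlap for 6 members, the 5 called ones and Gamt, against 33.0% of tested genes. They were higher in knockout for 3 members (16.7% of tested genes) and lower for 3 (16.4%). The edgeR quasi-likelihood test also called 5 members (39.7% of the genes it tested), 3 of them higher (20.2%) and 2 lower (19.6%). Leaving out each library in turn gave 4 called members without wildtype replicate 3 or knockout replicate 4, where Ak4 was lost, 6 without knockout replicate 1, where Ckmt2 was added, and 5 otherwise, with 5549 to 7022 genes called in all.

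**Figure D1:**
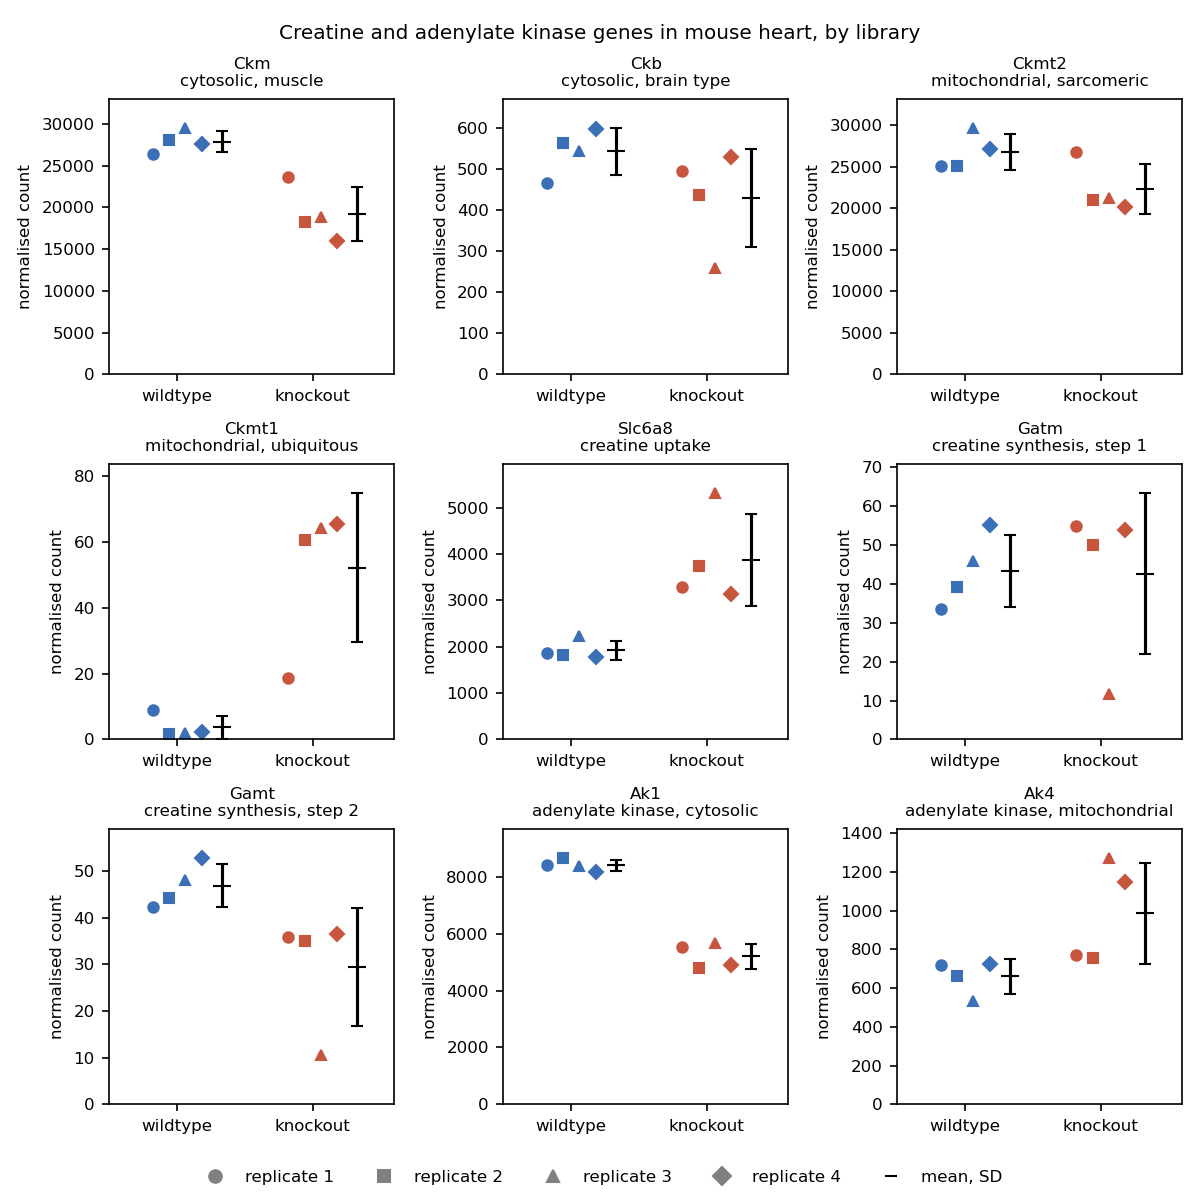
Normalised read count of each of the 9 members in each library, on a linear axis from 0; each symbol is 1 mouse (circle, square, triangle and diamond for replicates 1 to 4), and bars give mean and SD of 4. The wildtype and knockout points do not overlap for Ckm, Ckmt1, Slc6a8, Gamt, Ak1 and Ak4, and knockout replicate 3 is the lowest point for Ckb, Gatm and Gamt.

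Ckm encodes the muscle-type cytosolic enzyme. It had 26435, 28038, 29471 and 27650 normalised counts in the wildtype hearts, in the order of replicates 1 to 4 that is kept below, and 23669, 18230, 18835 and 15967 in the knockout hearts. All 4 knockout hearts lay below all 4 wildtype hearts, with knockout replicate 1 nearest to them. The mean fell from 27899 ± 1251 to 19175 ± 3240, a log2 fold change of -0.54 (SE 0.13, 95% interval -0.79 to -0.29, DESeq2 adjusted p = 0.000172). The gene (ENSMUSG00000030399.2) spans chr7:19404776-19422841 on the forward strand.

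Ckmt2 encodes the sarcomeric mitochondrial enzyme. Its normalised counts were 25054, 25056, 29595 and 27119 in wildtype and 26729, 20936, 21282 and 20108 in knockout. Knockout replicate 1 lay inside the wildtype range and the other 3 knockouts below it. The log2 fold change was -0.26 (SE 0.12, 95% interval -0.50 to -0.03), with a DESeq2 adjusted p of 0.0754. Leaving out knockout replicate 1 gave -0.36 (adjusted p = 0.000958). Ckmt2 (ENSMUSG00000021622.3) lies at chr13:91853387-91876885 on the reverse strand.

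Ckb encodes the brain-type cytosolic enzyme, the form found in many non-muscle cells and in the fetal heart. It had 465.5, 564.2, 544.7 and 597.6 normalised counts in wildtype and 494.9, 436.9, 259.3 and 529.4 in knockout. The groups overlapped, and knockout replicate 3 was the lowest of the 8. The log2 fold change was -0.34 (SE 0.21, 95% interval -0.75 to 0.07, DESeq2 adjusted p = 0.220). Leaving out knockout replicate 3 gave -0.16. Ckb (ENSMUSG00000001270.8) lies at chr12:111669361-111672338 on the reverse strand.

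Ckmt1, which encodes the ubiquitous mitochondrial enzyme, showed the largest change of the 9 members at the lowest wildtype level. Its expected counts were 5, 2, 2 and 2 in wildtype and 23, 59, 70 and 87 in knockout. On the normalised scale these were 8.93, 1.69, 2.03 and 2.29 in wildtype and 18.6, 60.5, 64.2 and 65.4 in knockout. Every knockout heart exceeded every wildtype heart, with wildtype replicate 1 high and knockout replicate 1 low within their groups. The log2 fold change was 3.996 (SE 0.64, 95% interval 2.74 to 5.25, DESeq2 adjusted p = 6.86e-09). Without wildtype replicate 1, every remaining wildtype library had 2 counts, and the knockout mean was at least 17.4-fold higher than a floor of 3 counts per library. The fitted log2 fold change was then 4.715, on wildtype counts under that floor. Ckmt1 (ENSMUSG00000000308.14, chr2:121357714-121363737, forward strand) overlaps Strc on the opposite strand, and the counting was stated to use strand. Its estimated effective length was 578 to 1115 bases in wildtype and 1097 to 1345 in knockout, and without that length in the fit the log2 fold change was 4.65.

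The 4 creatine kinase genes are related in sequence. The longest open reading frames of Ckm and Ckb were identical at 76.4% of aligned bases, and those of Ckmt1 and Ckmt2 at 71.6%. A close copy of Ckb, Gm12892 (96.8% identity over 1149 bases), had 0 counts in all libraries.

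Slc6a8, the plasma membrane transporter that brings creatine into the cell, was higher in every knockout heart. It had 1855, 1829, 2221 and 1784 normalised counts in wildtype and 3281, 3746, 5305 and 3141 in knockout. The groups did not overlap, and knockout replicate 3 was the highest. The mean rose from 1922 ± 201 to 3868 ± 992, which was 2.01-fold (log2 fold change 1.01, SE 0.17, 95% interval 0.67 to 1.35, DESeq2 adjusted p = 1.05e-07). Leaving out knockout replicate 3 gave 0.82 on the log2 scale. Slc6a8 (ENSMUSG00000019558.14) lies at chrX:73673150-73682502 on the forward strand.

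Gatm encodes the amidinotransferase that makes guanidinoacetate, the first step of creatine synthesis. It was read at a low level, with 33.5, 39.2, 45.8 and 55.0 normalised counts in wildtype and 54.8, 50.0, 11.8 and 53.9 in knockout. The ranges overlapped, and knockout replicate 3 was far below the other 7 libraries. The log2 fold change was -0.03 (SE 0.42, 95% interval -0.85 to 0.79, DESeq2 adjusted p = 0.968). It turned to 0.28 without knockout replicate 3 and to 0.11 without wildtype replicate 4. At this depth the interval took in changes of either sign. Gatm (ENSMUSG00000027199.14) lies at chr2:122594467-122611303 on the reverse strand.

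Gamt encodes the methyltransferase that completes creatine. Its normalised counts were 42.4, 44.2, 48.1 and 52.7 in wildtype and 35.9, 34.9, 10.5 and 36.5 in knockout. All 4 knockout values lay below the wildtype values, knockout replicate 3 by the widest margin. The log2 fold change of -0.66 (SE 0.36, 95% interval -1.36 to 0.04) had a DESeq2 adjusted p of 0.145. Leaving out knockout replicate 3 gave -0.39. Gamt (ENSMUSG00000020150.13) lies at chr10:80258151-80261012 on the reverse strand.

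Ak1, the main cytosolic adenylate kinase of muscle, varied least between mice of the 9 members, with coefficients of variation of 2.35% in wildtype and 8.49% in knockout. It had 8415, 8642, 8370 and 8161 normalised counts in wildtype and 5514, 4779, 5661 and 4886 in knockout. The groups were well apart. The mean fell from 8397 ± 198 to 5210 ± 442, a log2 fold change of -0.69 (SE 0.087, 95% interval -0.86 to -0.52, DESeq2 adjusted p = 7.73e-14). Ak1 (ENSMUSG00000026817.14) lies at chr2:32621758-32635058 on the forward strand.

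Ak4 encodes an adenylate kinase of the mitochondrial matrix. Its normalised counts were 722, 661, 535 and 724 in wildtype and 774, 757, 1270 and 1150 in knockout. On this scale the groups did not overlap, but knockout replicates 1 and 2 lay just above the wildtype range and replicates 3 and 4 well above it. The log2 fold change was 0.58 (SE 0.20, 95% interval 0.20 to 0.96, DESeq2 adjusted p = 0.0117). Estimated effective length averaged 3598 bases in wildtype and 3241 in knockout. Without that length in the fit the log2 fold change was 0.42 (DESeq2 adjusted p = 0.00907). The call was lost without knockout replicate 4 (0.50, adjusted p = 0.0591) and without wildtype replicate 3 (0.49, adjusted p = 0.0583). Ak4 (ENSMUSG00000028527.18) lies at chr4:101419277-101466995 on the forward strand. Its near-identical copy Ak3l2-ps (99.6% over 672 bases) had 0 counts in all libraries.

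The sign and the call of some members moved with the scaling of the libraries, which shifts all genes alike. Dividing by total counts moved the median gene by -0.30 on the log2 scale, and dividing by total counts without mitochondrial rRNA moved it by 0.43. Without mitochondrial rRNA, Ckm was -0.12 (DESeq2 adjusted p = 0.475) and was no longer called, while Ckmt2, Ckb and Gatm turned to 0.16, 0.10 and 0.42. With total counts, Ak4 was 0.28 (adjusted p = 0.247), and Ckmt2 (-0.56), Ckb (-0.61) and Gamt (-0.94) were called lower. With total counts 7 members were called (39.3% of tested genes), 2 higher (9.64%) and 5 lower (29.6%). Without mitochondrial rRNA 4 were called (44.3%), 3 higher (38.9%) and 1 lower (5.43%). Ckmt1, Slc6a8 and Ak1 kept their direction and their call under both. The median gene here was taken over genes averaging 10 or more normalised counts. It stood at 0.019 with the size factors used above. Relative to the median gene of each scaling, the values moved by less than 0.05. Ckm stood at -0.56 to -0.57, Ckmt2 at -0.28 to -0.29, Ckb at -0.34 to -0.35, Gatm at -0.020 to -0.048 and Ak4 at 0.56.

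**Figure D2:**
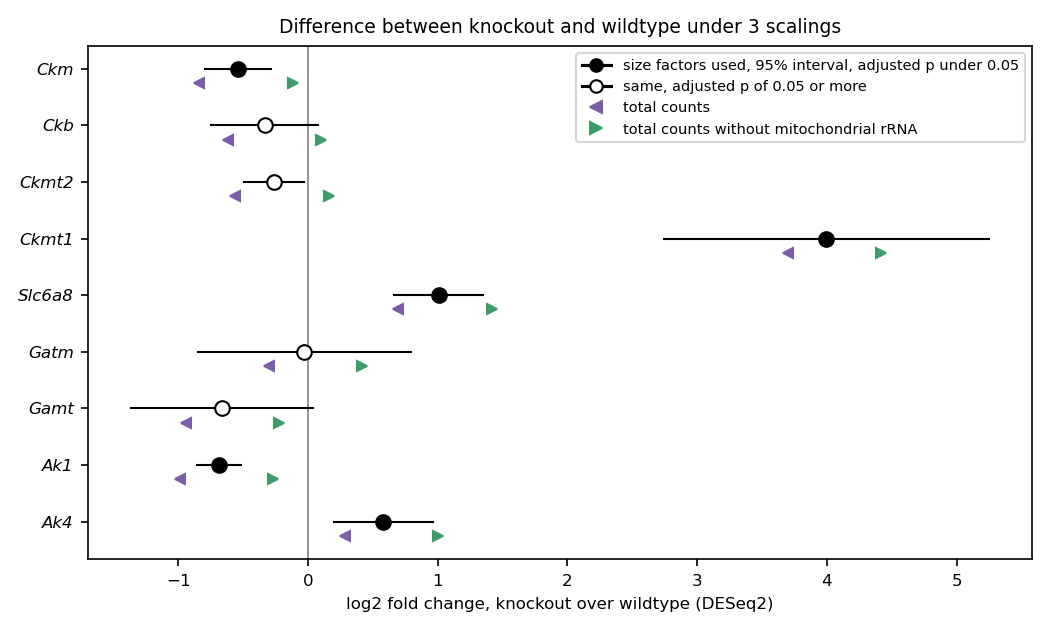
Log2 fold change of knockout over wildtype for the 9 members under 3 scalings; circles with bars give the DESeq2 estimate and its 95% interval (filled where the adjusted p was under 0.05), and triangles give the estimate after scaling to total counts, with and without mitochondrial rRNA. Ckmt1 has the largest rise, and Ckmt2, Ckb and Gatm lie on different sides of 0 under different scalings.

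Levels per transcript length were compared as TPM, the RSEM transcript level scaled for length and depth. In wildtype the order was Ckm (745 ± 34.1 TPM), Ckmt2 (558 ± 42.9), Ak1 (128 ± 5.04), Slc6a8 (18.6 ± 2.06), Ckb (11.4 ± 1.01), Ak4 (5.36 ± 0.71), Gamt (1.62 ± 0.13), Gatm (0.575 ± 0.11) and Ckmt1 (0.108 ± 0.10). No neighbours in that order overlapped between the 4 libraries. In knockout Ckm (464 ± 62.0 TPM) and Ckmt2 (423 ± 48.0) overlapped, as did Ckb (8.35 ± 2.69) and Ak4 (7.30 ± 1.92). Ckmt1 (1.36 ± 0.61 TPM) moved from the last place to a level that overlapped Gamt (0.948 ± 0.43), which in turn overlapped Gatm (0.528 ± 0.27). In TPM, Ak4 overlapped between the groups, at 4.36 to 5.96 in wildtype and 5.50 to 9.21 in knockout.

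Ratios of TPM inside a library do not depend on its scaling. Ckb stood at 1.39, 1.58, 1.46 and 1.70% of Ckm in wildtype and at 1.65, 1.89, 1.09 and 2.61% in knockout. The knockout values spread on both sides of the wildtype range, with replicate 3 lowest and replicate 4 highest. The mean log2 ratio differed by 0.17 (exact permutation test over 8 libraries, two-sided p = 0.571), and the difference was -0.026 without knockout replicate 4 and 0.396 without knockout replicate 3 (exact permutation p = 0.114).

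The other 4 ratios did not overlap between groups. Mitochondrial creatine kinases together stood at 73.2, 68.9, 77.5 and 75.5% of the cytosolic ones in wildtype and at 87.1, 88.6, 87.9 and 96.5% in knockout, a 1.22-fold rise. Ckmt2 itself did not rise (log2 fold change -0.26, not called), and Ckm was lower by more (-0.54). Ckmt1 stood at 0.0488, 0.00948, 0.00967 and 0.0109% of Ckmt2 in wildtype and at 0.0940, 0.393, 0.408 and 0.441% in knockout, a difference of 4.26 on the log2 scale that was 1.45 when 1 was added to each TPM. Ak4 stood at 4.57, 4.07, 3.41 and 4.73% of Ak1 in wildtype and at 7.47, 8.44, 11.9 and 12.5% in knockout, a 2.37-fold rise. In all 3 ratios every knockout library was above every wildtype library. Gatm fell relative to Slc6a8, from 2.47, 2.98, 2.83 and 4.23% to 2.30, 1.85, 0.301 and 2.37%. Each of these 4 ratios had p = 0.0286 by the exact permutation test, the smallest that 4 against 4 allows, and 0.0357 after adjustment over the 5 ratios. Each also reuses at least 1 member whose groups were already apart (Ckm, Ckmt1, Slc6a8, Ak1 or Ak4). Their p-values therefore largely restate the member results and are no separate support. The Gatm to Slc6a8 difference was -1.22 on the log2 scale and -0.50 without knockout replicate 3.

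**Figure D3:**
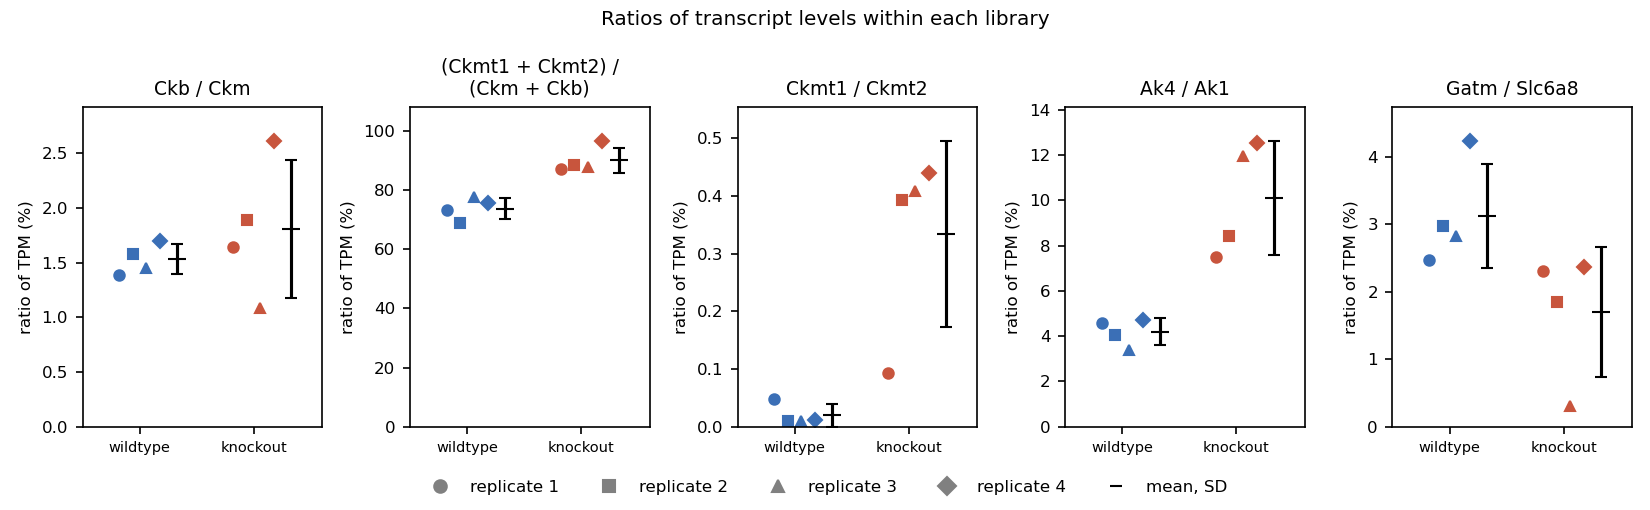
Ratios of TPM within each library in percent, on linear axes from 0, with 1 symbol per mouse and bars for mean and SD of 4. The Ckb to Ckm ratio overlaps between groups, and the other 4 ratios do not.

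As shares of summed creatine kinase TPM, Ckm went from 56.7% ± 1.21 to 51.7% ± 1.45 and Ckmt2 from 42.4% ± 1.24 to 47.2% ± 1.14 (SD, n = 4). Ckb held 0.869% ± 0.082 and 0.929% ± 0.30, and Ckmt1 0.00835% ± 0.0082 and 0.158% ± 0.078. Wildtype replicate 1 raised the Ckmt1 mean, at 0.0206% against 0.0039 to 0.0047% in the other wildtype libraries. The shares sum to a constant and say nothing of the level of Ckmt2 itself, which was not called.

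**Figure D4:**
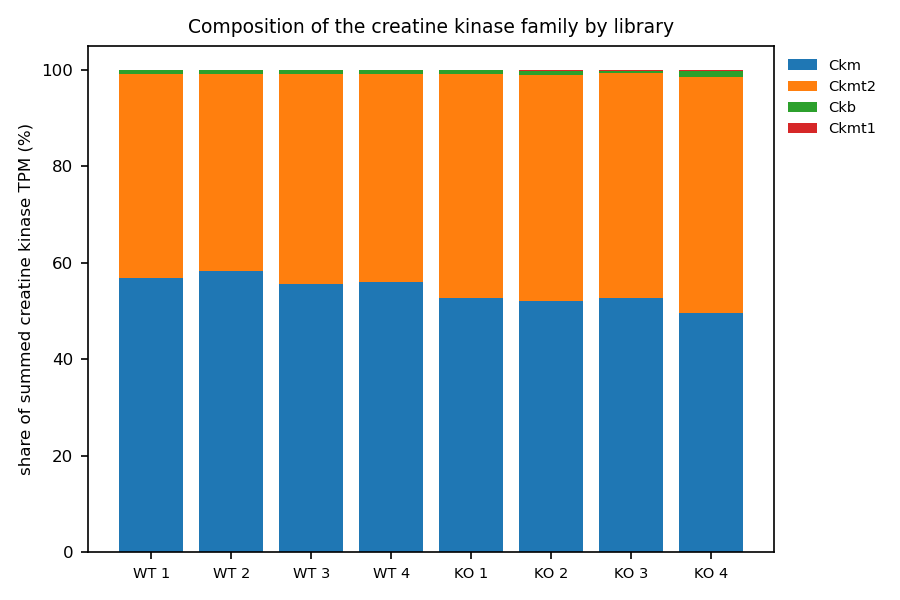
Stacked shares (%) of summed TPM in each library for the 4 creatine kinase genes; WT is wildtype, KO is knockout. The Ckm bars are shorter in all 4 knockout libraries, and Ckmt1 is at most a thin line at the top of the knockout bars.

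Ckb, Gatm and Gamt were lowest in knockout replicate 3, and several cell type marker lists were low there too, a comparison made after that library had been seen to stand apart. All 6 of 6 endothelial markers and 6 of 6 smooth muscle markers were lowest in that library among the knockouts, as were 5 of 7 fibroblast, 4 of 6 macrophage, 4 of 5 atrial, 2 of 7 nerve and glia, 2 of 5 adipose, 2 of 6 skeletal muscle, 1 of 8 cardiomyocyte and 0 of 5 erythroid markers. The summed endothelial level was 10327 there, against 12107 to 18053 in the other knockouts and 14709 to 16100 in wildtype. The summed smooth muscle level was 2625, against 3992 to 5336 and 7830 to 9750. The summed fibroblast level was 19171, against 32959 to 64147 in the other knockouts and 18172 to 18946 in wildtype. The erythroid sum was the highest of the 8 libraries there, at 53861 (other knockouts 15231 to 45829, wildtype 20882 to 27049). The adipose sum was also the highest, at 825, of which Cidea alone made up 822. No endothelial, smooth muscle or fibroblast marker was at 0 in that library. No share over all tested genes was set beside these marker counts, so they have no background to be read against. The part of these cells in the values of Ckb, Gatm and Gamt was not tested.

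**Figure D5:**
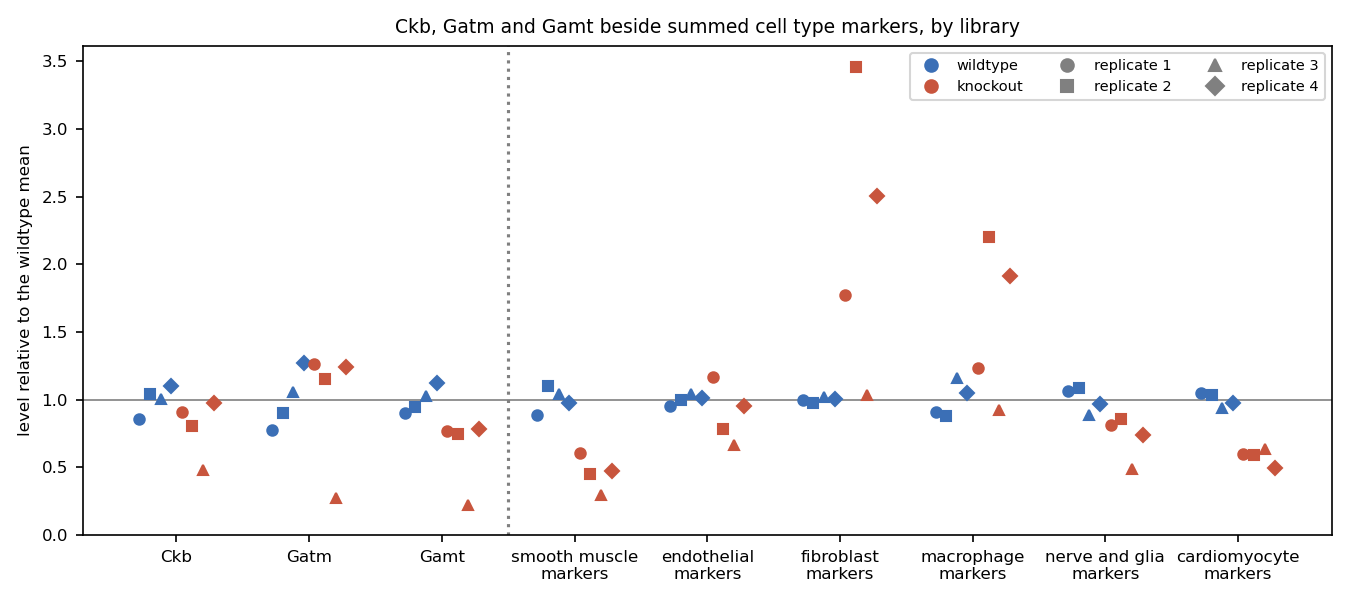
Normalised counts of Ckb, Gatm and Gamt and summed normalised counts of 6 cell type marker lists, each divided by its wildtype mean (line at 1), with 1 symbol per mouse. Knockout replicate 3 (red triangle) is the lowest of the 8 libraries for the 3 genes and for the smooth muscle, endothelial, and nerve and glia lists.

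The genes whose pattern over the 8 libraries was most like Ckb, among 10446 genes averaging 100 or more normalised counts, were Plxnd1 (Pearson r = 0.982), Ano1 (0.979) and Scd2 (0.971). Those most like Ckm were Rmnd1 (r = 0.987), Jph2 (0.984) and Ndufs8 (0.983). A correlation above 0.9 with Ckb was found for 99 genes and with Ckm for 526, and the libraries share their genotype split in all of them, so these are descriptions.

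Around the members, 5 lists of neighbouring pathways held 79 genes, of which 74 were tested, 34 rose and 8 fell. That is 56.8% called, against 33.7% of all tested genes (18.2% higher and 15.5% lower). The lists were written with earlier results of these data known, so the 2 shares are no test of enrichment. The balance moved with the scaling, to 22 higher and 20 lower with total counts, where 9.64% of all tested genes were higher and 29.6% lower, and to 55 and 4 without mitochondrial rRNA, where 38.9% and 5.43% were. Between the same groups, 4 of 7 fibroblast and 4 of 6 macrophage markers were called higher (median log2 fold changes 1.29 and 0.74), 4 of 6 smooth muscle markers were called lower (-1.16) and 0 of 6 endothelial markers were called. Of 5 atrial markers, Myl7 (-3.54) and Sln (-2.84) were called lower and Nppa (1.73) higher. Their part in the list values was not tested. In the list for creatine precursors and methyl supply, 7 of 13 rose and 2 fell (median log2 fold change 0.90). Shmt2 and Shmt1, the mitochondrial and cytosolic serine hydroxymethyltransferases, rose by 1.79 and 1.78. Slc16a9 (-0.77) and Oat (-0.40), an ornithine aminotransferase, were lower.

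Among the other adenylate and nucleotide kinases, 7 of 16 rose and 2 fell (median 0.44). Nme1, a nucleoside diphosphate kinase, rose by 1.61. Ak5 was called higher on few reads, with at most 1 count in any wildtype library and 7.28, 1.04, 2.08 and 11.4 normalised counts in knockout. Cmpk2 (-0.77) and Ak3 (-0.59), the matrix GTP-AMP kinase, were lower. In the list for ADP and ATP exchange across mitochondrial membranes, 5 of 13 rose and 2 fell (median 0.22). Tspo rose by 1.54, Slc25a5, an ADP/ATP carrier, by 1.48 and Hk1, the hexokinase that binds the outer membrane, by 1.24. Slc25a42 (-1.53) and Slc25a23 (-0.96) were lower, and Slc25a4, the main carrier of heart, was at -0.21 (DESeq2 adjusted p = 0.336).

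The list for AMP-activated protein kinase, which responds to AMP, also held genes such as Strada that do not encode its subunits. That list had 4 of 11 higher and 1 lower (median 0.19). Prkab2, a regulatory subunit, rose by 1.44, Strada by 0.61 and Prkag2 by 0.48. Prkag3, a muscle regulatory subunit, was at -2.65. For adenine nucleotide synthesis and breakdown, 11 of 21 rose and 1 fell (median 0.33). Ada, adenosine deaminase, rose by 2.19, Adssl1, the muscle adenylosuccinate synthase, by 1.49 and Aprt by 1.34. Nt5c1a, a cytosolic nucleotidase of AMP, was at -1.71.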

How the data were processed

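RNA from whole hearts of 4 wildtype and 4 knockout mice was sequenced in paired-end, randomly primed libraries depleted of cytoplasmic rRNA. Groups and replicate numbers came from the sample titles. The authors made the deposited expected counts and TPM with RSEM 1.2.31 and bowtie2 on GENCODE M13 transcripts (mm10), with strand, to which mitochondrial sequences with added adenines had been joined. RSEM shares reads between genes by estimation, so an expected count need not be whole. The effective length is another deposited value, in bases. The authors' table of log2 fold changes, p-values and adjusted p-values was not used, nor were 8 columns of a normalised count table whose names match no label.

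Here, expected counts were rounded and fitted with DESeq2 1.42.0 in R 4.3.3, with effective lengths as an offset, genotype as the only term, and Benjamini-Hochberg adjustment over all genes. A gene was called at an adjusted p under 0.05. The edgeR 4.0.16 quasi-likelihood test was an alternative. Both were tested on simulated data with 200 changed genes (22294 genes for DESeq2). DESeq2 recovered all 200, and 7.41% of its calls were false (8.29% for edgeR). All simulated libraries took their spread from the wildtype libraries, which varied less than the knockouts. Only well-covered genes were changed, and changes as small as that of Ckm were not simulated. Shifts in mitochondrial rRNA share or effective length were left out. These rates need not hold for the data here. Ratios of TPM were compared by exact two-sided permutation. Intervals are 95% Wald intervals of the fit. The mice are separate animals, and counts of 3 or fewer were taken as the floor.

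The members and lists were chosen with earlier results of these data known. Named genes were the 9 members, Lrpprc, up to 3 largest rises and falls past the threshold in each pathway list, and the 3 genes most like Ckb and Ckm. Some genes that this rule names are not reported here. Slc25a4 was named after its value was seen. Cell type markers, and genes that copy or overlap a member, were also named outside this rule. Of these, Tnnt2 was not called (DESeq2 adjusted p = 0.509). Of 50563 Ensembl identifiers, 50339 matched a symbol. Coordinates are from the GENCODE M21 annotation of GRCm38.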

Additional observations from a re-analysis of the deposited data

Results flagged for a closer look

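In 8 of 28 groups of 4 libraries, 1 library was far from the other 3 by Dixon's test at the 95% level, where chance gives about 1 in 20, or 1.4. These groups share genes and libraries and are not independent. For Ckmt1, wildtype replicate 1 had 8.93 normalised counts against 1.69 to 2.29 in the others, and knockout replicate 1 had 18.6 against 60.5 to 65.4. The Ckmt1 to Ckmt2 ratio of TPM was likewise 0.000488 in wildtype replicate 1 (others 9.48e-05 to 0.000109) and 0.000940 in knockout replicate 1 (others 0.00393 to 0.00441). In knockout replicate 3, Gatm had 11.8 normalised counts against 50.0 to 54.8, and Gamt had 10.5 against 34.9 to 36.5. Slc6a8 had 2221 in wildtype replicate 3 against 1784 to 1855. The mitochondrial to cytosolic creatine kinase ratio was 0.965 in knockout replicate 4 against 0.871 to 0.886. Leaving out the library concerned did not change the call of Ckmt1, Gatm, Gamt or Slc6a8, though the sign of Gatm turned without knockout replicate 3.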

How the results depend on the processing

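Of 135 alternative values for the 9 members, direction and call were kept in 67 that left out a library and in 55 others. Total counts gave 1924 genes higher and 5912 lower, with 5 members lower and 22 pathway genes higher and 20 lower. Total counts without mitochondrial rRNA gave 7950 higher and 1111 lower, with 1 member lower, 55 pathway genes higher and 4 lower, and Ckmt2, Ckb and Gatm at 0.16, 0.10 and 0.42, a change of sign that came with a shift of the median gene by 0.43 and not relative to it. Leaving out each library gave -0.17 to 0.28 for Gatm, with 0.11 without wildtype replicate 4.

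Leaving out each library in turn gave log2 ratio differences of -0.026 to 0.396 for Ckb to Ckm, 4.05 to 4.84 for Ckmt1 to Ckmt2 (1.45 with 1 added to each TPM), 0.253 to 0.311 for mitochondrial to cytosolic creatine kinase, 1.13 to 1.38 for Ak4 to Ak1 and -1.50 to -0.504 for Gatm to Slc6a8. The smallest exact permutation p is then 0.0571, so none could pass. The Ckb share difference ranged from -0.062 to 0.179 percentage points.

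The replicate numbers did not pair the samples, with correlations of -0.0515 to 0.0864 for equal numbers. With the replicate block, 5525 genes and 5 members were called. The sign-flip test over replicate pairs gave the same differences (4.26, 0.287, 1.24 and -1.22) with p = 0.125, the smallest that 4 pairs allow in an exact test. The cause of these changes was not tested. Gatm, Gamt and wildtype Ckmt1 rested on few counts.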
